A study of Mus musculus with 6 samples.

Results

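Fc receptors bind the constant part of antibodies and let macrophages take up particles that carry them. The 6 genes described here are Fcgr1, Fcgr2b, Fcgr3, Fcgr4, Fcer1g and Fcgrt, chosen by name. They were read from the array probes whose RefSeq accession maps to these symbols. Each gene had 1 probe, so the 6 genes rest on 6 of 55681 probes that are not controls, and the array names 20018 genes in all. All 6 probes were well above background on all 6 arrays. None of the 6 genes differed between genotypes beyond the spread between mice, and the wild-type and knockout values of all 6 overlapped.

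The cells were red pulp macrophages, the splenic macrophages that clear aged red blood cells, sorted from the spleen on a flow cytometer, and the C57BL/6 mice were 8 to 9 weeks old. Of the 6 mice, 3 were wild type and 3 were Bach2 knock out, and Bach2 is a transcription factor that binds Maf recognition elements. The question behind the series was the role of Bach2 where red cell heme and iron are handled. All mice were independent animals, and all were male except wild-type replicate 3, a female. The labels do not say whether Bach2 was deleted in all cells or in one lineage, nor which surface markers defined the sort. Each mouse gave 1 single-colour Agilent array, all on 1 slide, with wild type in array row 1 and knockout in array row 2. Row and genotype therefore cannot be told apart. Columns 1, 2 and 3 of the slide each carried both genotypes. In each genotype replicate 3 has the tag P6, whose meaning is not stated. A level is the log2 signal minus the 75th percentile of its array, and a difference is knockout minus wild type.

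The share of spots well above background was 37.5% to 51.5%. The 75th percentile of the signal was lowest in wild-type replicate 3, at 865, and highest in knockout replicate 3, at 3172, a 3.67-fold range. The Bach2 probe that was above background read -1.09, -0.21 and -1.53 in wild type and -2.42, -3.90 and -1.41 in knockout, and it was above background on 2 of 3 knockout arrays. Its place relative to the deleted part is not given in the sources used here, so it does not check the labels. All 12 measured markers of red pulp macrophages were above background on at least 4 arrays. All 12 had differences below 0, with a median of -0.52, and none passed the test. Taken singly, 1 of the 12, Slc40a1, did not overlap, with knockout lower, beside 2.07% of probes well above background on at least 3 arrays. Most of the 12 were bright, and of all 505 named genes whose mean level reached 6, 474 lay below 0, with a median of -0.35. The lowest difference of the 12, -1.30, was that of Cd163, a dim gene. The part of brightness in the marker differences was not tested. The 8 NK cell markers had a summed log2 level of 4.67 to 5.58 in wild type and 6.21 to 8.07 in knockout, without overlap. That sum adds unlogged levels and is largely set by Gzma, which read 5.17, 4.50 and 4.07 in wild type and 5.83, 7.73 and 6.01 in knockout. Taken singly, 4 of the 8 did not overlap, beside 3.3% of probes well above background on at least 3 arrays. In sorted cells, fewer cells of a type and less RNA per cell cannot be told apart.

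As background, the mouse receptors for IgG fall into activating and inhibitory members. Fcgr1, the high-affinity receptor, and Fcgr3 and Fcgr4, which bind immune complexes, signal through Fcer1g, a small shared chain with an immunoreceptor tyrosine-based activation motif (ITAM). Fcgr2b carries an inhibitory motif (ITIM) of its own and dampens the activating members. Fcgrt, the neonatal Fc receptor, pairs with beta-2 microglobulin inside the cell and returns IgG from endosomes to the surface. Fcgr2b, Fcgr4 and Fcgr3 lie next to each other on chromosome 1 with 0 protein-coding genes between neighbours, and 7 protein-coding genes separate Fcgr3 from Fcer1g in the RefSeq annotation of GRCm38.p6. Fcgr1 lies on chromosome 3 and Fcgrt on chromosome 7. The extracellular parts of Fcgr2b and Fcgr3 are closely alike, and the probe sequences were not used here, so shared hybridisation between these relatives is uncertain.

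The promoters of the activating receptors are shown because they share a short motif that the choice of the genes did not use. RefSeq windows of GRCm38.p6 were found for all 6 genes, and 250 bases before each start were searched. The letters GAGGAA, a core that PU.1 and other ETS factors bind, were found on either strand in Fcgr1, Fcgr3 and Fcgr4, 3 of the 6 genes, and in 23.3% of all 32851 windows. In each of the 3 it lay on the strand opposite to the gene, beginning 55 bases before the start in Fcgr1, 6 in Fcgr3 and 22 in Fcgr4. The core TGANTCA, which AP-1 and BACH factors bind, was in 0 of the 6 windows and in 6.75% of all windows. TGCTGA, the letters of a Maf half-site, was in 1 of the 6, beginning 43 bases before the start of Fcgr3 and left in lower case here, and in 16.1% of all windows. The last 120 bases before the start of the 3 genes, and of Fcgr2b for comparison, follow 5′ to 3′ in the direction of the gene, with GAGGAA (or its reverse complement) in capitals. They lie at chr3:96293970-96294089 (minus strand) for Fcgr1, chr1:171059404-171059523 (minus strand) for Fcgr3, chr1:171018806-171018925 (plus strand) for Fcgr4 and chr1:170976072-170976191 (minus strand) for Fcgr2b. Where a gene has 2 windows in the table, as Fcgr3 does, the first is shown.
Fcgr1: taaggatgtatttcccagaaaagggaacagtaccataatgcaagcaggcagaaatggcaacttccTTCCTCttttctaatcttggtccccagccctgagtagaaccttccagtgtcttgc
Fcgr3: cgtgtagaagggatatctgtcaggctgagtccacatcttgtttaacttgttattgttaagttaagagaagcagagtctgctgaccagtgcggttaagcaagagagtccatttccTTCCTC
Fcgr4: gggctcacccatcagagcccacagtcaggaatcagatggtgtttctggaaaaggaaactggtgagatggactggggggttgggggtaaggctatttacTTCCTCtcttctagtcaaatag
Fcgr2b: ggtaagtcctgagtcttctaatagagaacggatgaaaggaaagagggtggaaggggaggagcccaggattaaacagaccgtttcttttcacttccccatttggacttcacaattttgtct

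Across all 55681 probes, limma called 0 (0%) at an adjusted p under 0.05, and 492 (0.884%) had an unadjusted p under 0.05. Of the 6 Fc receptor genes, 0 had an unadjusted p under 0.05, and the smallest, that of Fcer1g, was 0.356 (limma, unadjusted). Genotypes did not overlap for 0 of the 6 genes, beside 2.58% of all probes (0.686% with knockout higher and 1.89% with knockout lower). Among probes well above background on at least 3 arrays, as the 6 are, that share was 3.3% (1.23% higher and 2.07% lower), and 0.989% had an unadjusted p under 0.05. Of the 6 differences 2 lay above 0 and 4 below, with a median of -0.21. Among 11748 named genes well above background on at least 3 arrays, 41.1% lay above 0 and the median was -0.08. That median moved to 0.06 when arrays were centred on their median and to 0.31 without scaling, so differences are also given from it.

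No difference of the 3 activating receptors for IgG exceeded its SE. Fcgr1 and Fcgr3 lay below 0 and Fcgr4 above it, whereas without scaling all 3 lay above 0. Fcgr1, the high-affinity receptor, read 2.89, 4.07 and 3.58 in wild type and 2.47, 3.63 and 3.53 in knockout. Replicate 2 was the highest mouse in both genotypes, and replicate 1 the lowest in both. The means were 3.51 ± 0.59 (SD, n = 3) and 3.21 ± 0.64 (SD, n = 3), a difference of -0.30 ± 0.66 (SE; limma adjusted p of 1) and -0.22 from the median of named genes. The 95% interval of the difference ran from 0.297-fold to 2.21-fold. Without knockout replicate 1 it was 0.07, and without scaling 0.09, so its direction turned with either choice.

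Fcgr3, a low-affinity activating receptor of macrophages and NK cells, read 2.76, 3.45 and 3.79 in wild type and 3.08, 3.17 and 2.92 in knockout. The knockout mice lay close together, between the lowest and the middle wild-type mouse. The means were 3.33 ± 0.52 (SD, n = 3) and 3.06 ± 0.13 (SD, n = 3), a difference of -0.28 ± 0.62 (SE; limma adjusted p of 1) and -0.20 from the median of named genes. The 95% interval ran from 0.323-fold to 2.11-fold. The difference was 0.02 without both P6-tagged mice and 0.12 without scaling. NK cells also carry Fcgr3, and the part of the NK cell markers given above in the Fcgr3 values was not tested.

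Fcgr4, an activating receptor of monocytes, macrophages and neutrophils, read 4.61, 6.04 and 5.28 in wild type and 5.37, 6.18 and 5.57 in knockout. Replicate 2 was again the highest of each genotype, and wild-type replicate 1 was the lowest of the 6 mice. The means were 5.31 ± 0.72 (SD, n = 3) and 5.71 ± 0.42 (SD, n = 3), a difference of 0.40 ± 0.65 (SE; limma adjusted p of 1) and 0.48 from the median of named genes. The 95% interval ran from 0.488-fold to 3.56-fold. Without wild-type replicate 1 the difference was 0.049. It exceeded its SE with quantile normalization, at 0.65 ± 0.36 (SE; limma unadjusted p of 0.132). Without scaling it was 0.79 ± 0.69 (SE; limma unadjusted p of 0.270). The summed log2 level of 9 neutrophil markers was 6.79, 7.88 and 5.71 in wild type and 7.49, 8.55 and 6.47 in knockout, with replicate 2 also the highest of each genotype. Taken singly, 8 of these markers were above background on at least 3 arrays, 7 above 0 and 1 below, with a median of 1.20. Of the 8, Ltf alone did not overlap, with knockout higher, beside 1.23% of probes well above background on at least 3 arrays. The summed level of 6 monocyte markers was 6.46 to 7.65 in wild type and 7.10 to 7.56 in knockout. The part of these cells in the Fcgr4 values was not tested.

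**Figure D1:**
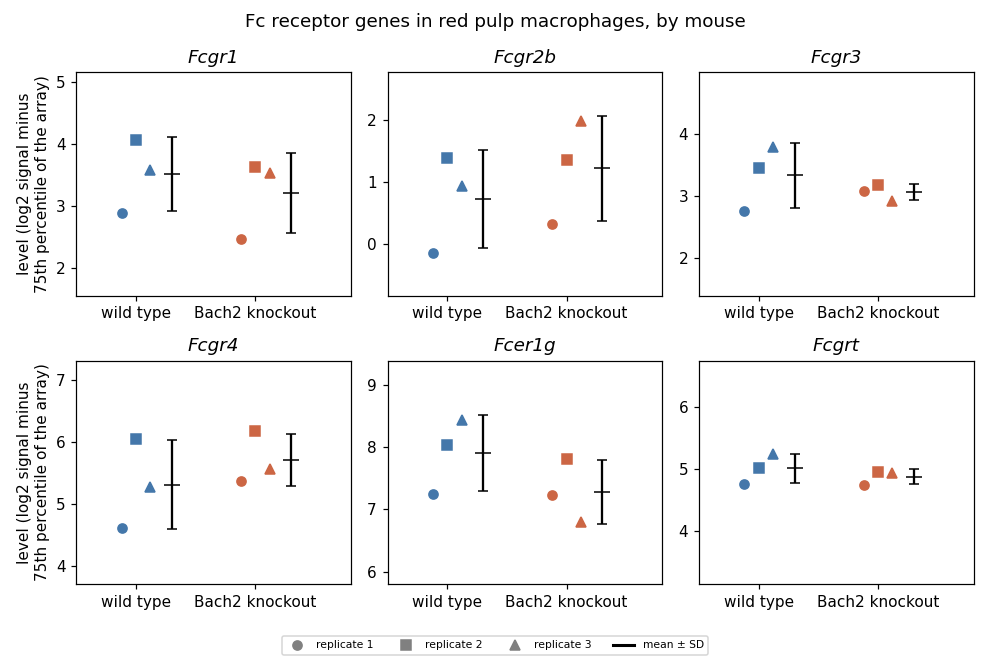
Level (log2 signal minus the 75th percentile of the array) of the 6 Fc receptor genes in each mouse, wild type in blue and Bach2 knockout in orange, with the mean and SD of 3 mice in black; every panel spans the same number of log2 units. The genotypes overlap in all 6 panels, and Fcgrt varies least over the mice at these scaled levels.

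Fcer1g, the signalling chain the activating receptors need, read 7.24, 8.04 and 8.43 in wild type and 7.23, 7.82 and 6.79 in knockout. Knockout replicate 3 was the lowest mouse, knockout replicate 1 lay just below the lowest wild-type mouse, and knockout replicate 2 lay among the wild-type mice. The means were 7.91 ± 0.61 (SD, n = 3) and 7.28 ± 0.51 (SD, n = 3), a difference of -0.62 ± 0.65 (SE; limma adjusted p of 1) and -0.54 from the median of named genes. The 95% interval ran from 0.242-fold to 1.74-fold. Its difference within array columns 1, 2 and 3 was -0.01, -0.22 and -1.64, so most of it lay in column 3. That column held the only female, wild-type replicate 3, and the arrays with the lowest and the highest 75th percentile. Within it, sex, array percentile and genotype cannot be told apart.

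The Fcer1g signal was near the top of what the arrays measured. Before scaling it ran from 233417 to 445170, a 1.91-fold range against the 3.67-fold range of the array percentile. The 3 brightest spike-in probes read 373000 to 581191, and Fcer1g entered that range on 1 of 6 arrays, although no spot was marked as saturated. Knockout replicate 3 had the highest percentile, and its unscaled Fcer1g signal of 351784 was the second highest of the 6. The difference was -0.23 without scaling and -0.12 with quantile normalization. A difference below 0 was common among bright genes: of 505 named genes whose mean level reached 6, 474 lay below 0, with a median of -0.35. The part of brightness or scaling in the Fcer1g difference was not tested.

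Fcgr2b, the inhibitory receptor, read -0.14, 1.38 and 0.94 in wild type and 0.32, 1.35 and 1.98 in knockout. Knockout replicate 3 was the highest mouse and wild-type replicate 1 the lowest, with the other mice interleaved. The means were 0.73 ± 0.78 (SD, n = 3) and 1.22 ± 0.84 (SD, n = 3), a difference of 0.49 ± 0.71 (SE; limma adjusted p of 1) and 0.57 from the median of named genes. The 95% interval ran from 0.480-fold to 4.12-fold. The difference was 0.11 without knockout replicate 3 and 0.06 without wild-type replicate 1, and within array columns 1, 2 and 3 it was 0.46, -0.03 and 1.05.

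The Fcgr2b probe was printed 10 times on each array, which gives the error from spot to spot, but not that of amplification, labelling, hybridisation or scaling, which all spots of an array share. The SD over its spots on an array was between 0.05 and 0.12, and 1 spot was left out as an outlier on each of wild-type replicates 2 and 3. The 10 spots of knockout replicate 3 lay between 1.85 and 2.09, above every spot of the other mice. Fcgr2b is also a receptor of B cells. Ms4a1, which encodes CD20 of B cells, read 2.66, 3.68 and 4.22 in wild type and 3.72, 3.31 and 5.17 in knockout. Its lowest mouse was wild-type replicate 1 and its highest knockout replicate 3, as for Fcgr2b, but most of the B cell markers did not share both extremes. Cr2, the complement receptor of B cells, differed by -1.26, with every knockout mouse below every wild-type mouse (limma adjusted p of 1). Ms4a1 and Cr2 were picked after their values were seen. The summed log2 level of 7 B cell markers was 6.16 to 7.23 in wild type and 6.67 to 7.11 in knockout. The part of B cells in the Fcgr2b values was not tested.

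**Figure D2:**
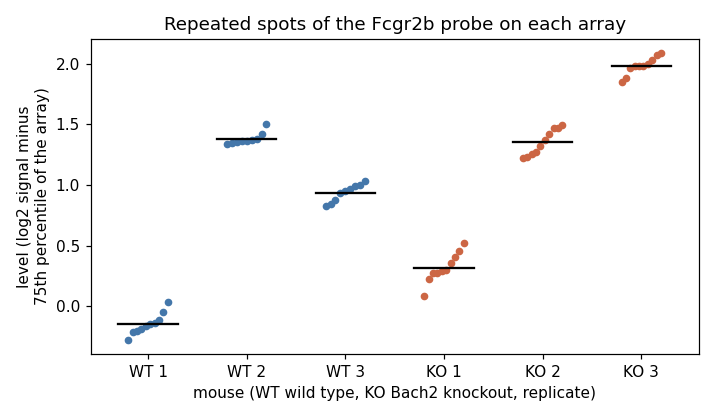
Level (log2 signal minus the 75th percentile of the array) of every unflagged spot of the Fcgr2b probe on the array of each mouse, wild type in blue and knockout in orange, with the mean of the spots as a line. The SD over spots, which holds spot error alone, is at most 0.12 on an array, and the array means run from -0.14 to 1.98.

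Fcgrt, the receptor that recycles IgG, was the least variable of the 6 genes over these mice after scaling. Before scaling its signal ranged 2.96-fold, more than that of Fcgr3 (2.27-fold) or Fcer1g (1.91-fold). The scaled level of Fcgrt read 4.76, 5.02 and 5.24 in wild type and 4.73, 4.95 and 4.93 in knockout. That is a 1.42-fold range over the 6 mice, where Fcgr2b ranged 4.36-fold. The means were 5.01 ± 0.24 (SD, n = 3) and 4.87 ± 0.12 (SD, n = 3), a difference of -0.13 ± 0.60 (SE; limma adjusted p of 1) and -0.05 from the median of named genes. Its 95% interval ran from 0.368-fold to 2.26-fold. In limma each SE is drawn towards the spread of all probes, dim ones included. Its SE was 0.41 when only probes well above background on at least 3 arrays were tested. The sign turned under 4 scalings, with 0.26 without scaling as the highest value. B2m, which encodes the light chain that Fcgrt pairs with, read 7.49, 7.92 and 8.64 in wild type and 7.81, 7.85 and 6.78 in knockout, a difference of -0.54 ± 0.66 (SE; limma adjusted p of 1).

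**Figure D3:**
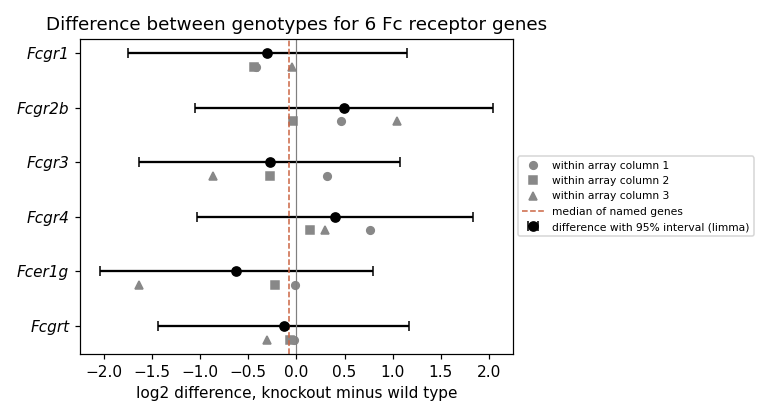
Log2 difference, knockout minus wild type, of the 6 genes with its 95% interval from limma in black, and the difference between the mice of array columns 1, 2 and 3 in grey; the dashed line is the median of named genes. All 6 intervals include 0, and the column values of Fcgr1, Fcer1g and Fcgrt lie below 0 while those of Fcgr4 lie above it.

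How activating chains stood against the inhibitory receptor was read within each array, where a single scaling factor per array cancels but quantile normalization does not. For each of Fcgr1, Fcgr3, Fcgr4 and Fcer1g the log2 difference from Fcgr2b was centred on the 6 arrays. Fcgr1 relative to Fcgr2b read 0.64, 0.30 and 0.25 in wild type and -0.24, -0.11 and -0.84 in knockout. Every knockout mouse lay below every wild-type mouse, which was so for 8.85% of 11734 named genes set against Fcgr2b in the same way (8.95% in either direction). The difference was -0.80, 1.74-fold higher in wild type, with an exact permutation p of 0.1 (two-sided; 3 against 3 mice allow no smaller), or 0.267 after adjustment over the 4 comparisons. Within array columns 1, 2 and 3 it was -0.88, -0.41 and -1.09.

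The other chains overlapped between genotypes. Fcer1g relative to Fcgr2b read 0.77, 0.03 and 0.87 in wild type and 0.29, -0.16 and -1.81 in knockout, a difference of -1.12 (exact permutation p = 0.2, adjusted 0.267). It rested on knockout replicate 3, and without that mouse it was -0.49. Quantile normalization gave -0.65, and leaving out both P6-tagged mice gave -0.33. Fcgr3 relative to Fcgr2b differed by -0.77 (exact permutation p = 0.2, adjusted 0.267), and by -0.32 without knockout replicate 3 and -0.20 without both P6-tagged mice. Fcgr4 relative to Fcgr2b differed by -0.09 (exact permutation p = 1), and by 0.36 without knockout replicate 3. All 4 comparisons share the Fcgr2b values, which were highest in that mouse.

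**Figure D4:**
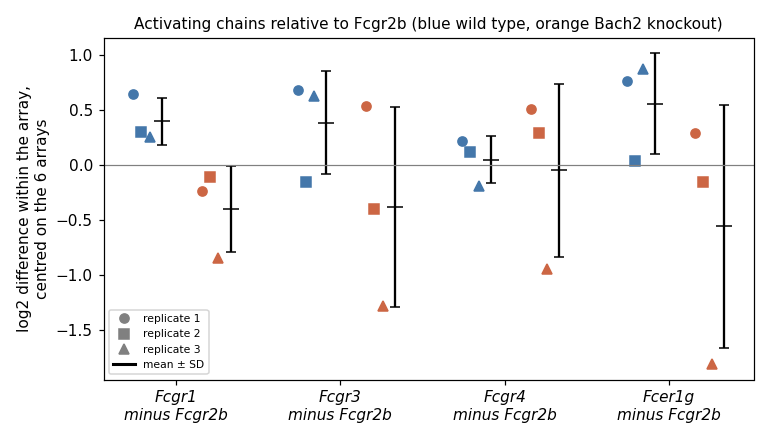
Log2 difference between an activating chain and Fcgr2b within each array, centred on the 6 arrays, for wild-type mice in blue and knockout mice in orange, with the mean and SD of 3 mice in black. Fcgr1 is the chain whose genotypes do not overlap, and knockout replicate 3 is the lowest mouse for all 4 chains.

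Genes around these receptors were read from lists for their function, each gene by its brightest probe. Among 20018 named genes, 0 (0%) were called by limma, and genotypes did not overlap for 2.63%. In all 5 lists 0 genes were called in either direction, and 0 genes that were above background on at least 3 arrays had genotypes without overlap or an unadjusted p under 0.05 by limma. Medians and counts below are of genes above background on at least 3 arrays, beside the median of -0.08 over named genes, of which 41.1% lay above 0. Some of these medians changed sign under other scalings, and without scaling all 5 lay above 0.

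Of 14 other Fc binding proteins and partner chains, 9 were above background on at least 3 arrays, with 3 above 0, 6 below and a median difference of -0.04. Fcer2a, the low-affinity IgE receptor, read -2.39, -1.79 and 0.05 in wild type and -0.75, -1.17 and 0.18 in knockout, a difference of 0.80 ± 0.77 (SE; limma adjusted p of 1). B2m, given above, had the next smallest p among the 9. Pigr, which carries polymeric antibodies across epithelia, was above background on all 6 arrays, and Ms4a2, Fcamr and Fcrl6 on none.

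Other receptors that signal through Fcer1g showed 7 of 9 genes above background on at least 3 arrays, 3 above 0 and 4 below, with a median of -0.01. Clec4n, which encodes Dectin-2, read 7.36, 7.78 and 7.79 in wild type and 7.26, 7.42 and 6.77 in knockout, a difference of -0.49 ± 0.61 (SE; limma adjusted p of 1). Klrb1c, which encodes NK1.1 and is among the NK cell markers described above, differed by 1.45 ± 0.72 (SE; limma adjusted p of 1). The median of this list was 0.50 without wild-type replicate 2.

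The kinases and adaptors downstream of the ITAM numbered 28, of which 23 were above background on at least 3 arrays, 9 above 0 and 14 below, with a median of -0.10. Syk, the kinase that binds the phosphorylated ITAM, read 4.19, 5.28 and 5.55 in wild type and 4.13, 4.68 and 5.10 in knockout, with overlap. Tyrobp, the ITAM chain related to Fcer1g, read 7.38, 7.86 and 8.20 in wild type and 7.41, 7.91 and 6.92 in knockout. As for Fcer1g, its lowest mouse was knockout replicate 3. Among the 23, the 2 smallest p-values belonged to adaptors. Lat, an adaptor of T cells, differed by 1.24 ± 0.70 and Lat2, its relative in B cells and myeloid cells, by 0.62 ± 0.65 (SE; limma adjusted p of 1 for both). The summed log2 level of 8 T cell markers was 4.41 to 5.08 in wild type and 4.64 to 6.12 in knockout. By marker, 7 of the 8 lay above 0 and 1 below, with a median of 0.996. Of the 8, 3 did not overlap, with knockout higher, beside 1.23% of probes well above background on at least 3 arrays. These 3 were Lck, Zap70 and Cd5. By limma, 2 of the 8 had an unadjusted p under 0.05 and 0 were called. The part of T cells in the Lat values was not tested.

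Of 19 genes that limit ITAM signalling, 17 were above background on at least 3 arrays, 4 above 0 and 13 below, with a median of -0.19. Of the 17, 6 lay above the median of named genes. Inpp5d, which encodes the phosphatase SHIP1 that Fcgr2b recruits, averaged 4.30 ± 0.45 in wild type and 4.26 ± 0.66 in knockout (SD, n = 3 each). The phosphatase gene Ptpn6 differed by -0.18 ± 0.67. Sirpa, the receptor for the CD47 signal of red cells, differed by -0.48 ± 0.63, and Clec4a2 by -0.57 ± 0.77 with 3 of 6 arrays above background (SE; limma adjusted p of 1 for these 3). Syk, Tyrobp, Inpp5d and Ptpn6 were picked for their role after their values were seen.

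The actin and membrane machinery of the phagocytic cup had 26 listed genes, of which 23 were above background on at least 3 arrays. Of these 4 lay above 0 and 19 below, with a median of -0.14, and 9 of the 23 lay above the median of named genes. Cfl1, which encodes the actin-severing protein cofilin, read 4.95, 5.65 and 6.82 in wild type and 5.23, 4.47 and 5.34 in knockout, a difference of -0.79 ± 0.69 (SE; limma adjusted p of 1). Wasf2, which drives branched actin, differed by -0.70 ± 0.72 (SE; limma adjusted p of 1), but its probes above background differed in sign.

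**Figure D5:**
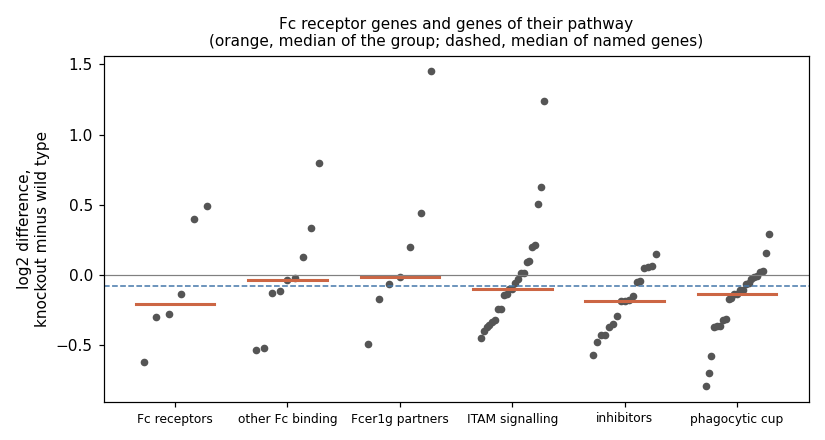
Log2 difference, knockout minus wild type, of the 6 Fc receptor genes and of the genes of 5 pathway lists above background on at least 3 arrays, each point 1 gene and the orange line the median. The dashed line is the median of named genes at -0.08, and the list medians lie between -0.19 and -0.01.

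Other genes followed the pattern of single Fc receptor genes over the mice, which is described here with no test. Among 9264 other named genes above background on all 6 arrays, Klhl18 (Pearson r of 0.999 over 6 arrays) and Cyth4 (0.996) were closest to Fcgr1. Sipa1l3 (0.993) and Hspa13 (0.989) were closest to Fcgr2b, and Prdx1 (0.973) and Rnasek (0.970) to Fcgr3. Syt11 (0.987) and Rab19 (0.984) were closest to Fcgr4, Eno1b (0.993) and Sirpa (0.988) to Fcer1g, and Tcn2 (0.991) and Anxa6 (0.991) to Fcgrt. With 6 arrays such values are common, and 5.34% of the genes searched had an r over 0.9 with Fcgr1 and 0.680% with Fcgr3. Among the 6 genes themselves r ran from 0.02, for Fcgr2b and Fcer1g, to 0.90, for Fcgr3 and Fcer1g. All points share the array scaling.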

How the data were processed

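RNA from 6 mice, 3 of each genotype, was amplified and labelled with a cyanine dye, per the labels' protocols. The deposited files hold spot intensity read with Agilent Feature Extraction, given as version 9.1 in the submitters' processing notes. Per the file headers it was 10.7.3.1. Processed intensity was already background subtracted within the array, per the file headers. A table of log2 values for 279 probes, centred per probe by the authors, held 0 probes of the 6 genes. Well-above-background and outlier flags were used as deposited.

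Of 62976 spots per array, 59305 were not controls. Outlier spots, 141 to 283 per array, were left out and spots of a probe averaged as log2 values. Levels are log2 signal minus the 75th percentile of the array. The RefSeq table of GRCm38.p6 named 26413 probes; the array grid cites mm9, so no probe coordinate is given. Probes were tested with lmFit and eBayes (limma 3.58.1, R 4.3.3) without a filter on dim probes, with Benjamini-Hochberg adjustment over all, at an adjusted p of 0.05. The fit was tested on simulated data. The number of arrays limits the precision.

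Named genes were the 6 members, the 2 of each list with the smallest p among genes well above background on at least 3 arrays, and the 2 most like each member. Members and lists were chosen with earlier results of these data known. Alternatives covered scaling, background, dim probes, outlier spots, variance model, array column and each mouse.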

Additional observations from a re-analysis of the deposited data

How the results depend on the processing

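No member was called under any of 18 alternatives, and the smallest limma adjusted p of a member among them was 0.833. Across all probes 19 were called with a variance trend and robust limma, and 0 under the other alternatives. Fcgr2b and Fcgr4 stayed above 0 and Fcer1g below 0 in all 18. Alternatives that changed only the probes tested, the variance model or the array column block could not move these differences. Without scaling, Fcgr1 read 0.091, Fcgr3 0.12 and Fcgrt 0.26, and without both P6-tagged mice Fcgr3 read 0.017. Fcgrt also read 0.0066 with median centring, 0.028 with quantile normalization and 0.029 with normexp. Leaving out each mouse moved Fcgr1 between -0.61 and 0.067. Fcgr4 relative to Fcgr2b read 0.12 with quantile normalization with or without normexp, 0.24 without both P6-tagged mice, 0.30 and 0.17 within array columns 1 and 2, and between -0.37 and 0.36 when each mouse was left out; the cause was not tested. Relative to Fcgr2b, Fcgr1, Fcgr3 and Fcer1g stayed below 0 in all 16. Alternatives with a single scaling factor per array could not change these values, and the column values are parts of the main difference. The labels give no replicate numbers that pair the mice. Array column, which holds a mouse of each genotype, was run as a block and changed no call. The unscaled values and normexp on the median spot signal were chosen after seeing the data. With 3 mice a genotype, intervals of the 6 genes span differences that these arrays could not detect.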

Other observations

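Fcer1a, the IgE-binding chain that pairs with Fcer1g on mast cells and basophils, was the 1 gene of the pathway lists found among the 279 probes of the authors' deposited table. In the authors' deposited table its centred log2 values were -0.99, -0.91 and -0.35 in wild type and 0.35, 1.70 and 0.46 in knockout. In the scanner files it read -5.12, -5.10 and -4.48 in wild type and -3.78, -2.43 and -3.73 in knockout. Only 1 of the 6 arrays, of knockout, measured it above background, so no fold is given (limma adjusted p of 1). Ms4a2, the beta chain of the same receptor, stayed under that limit on all 6 arrays. Fcer1a was singled out after its values were seen.

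Of the 3 mast cell and basophil markers above background on at least 3 arrays, Cpa3 and Cma1 lay above 0 and Kit below, at -0.31. For Cma1, at 1.75, every knockout mouse lay above every wild-type mouse, beside 1.23% of probes well above background on at least 3 arrays. Cma1 was above background on 1 wild-type and 2 knockout arrays. The summed log2 level of all 6 was 0.93 to 2.39 in wild type and 1.19 to 2.13 in knockout. Cpa3, a protease of mast cells and basophils, read -5.17, -1.03 and -4.54 in wild type and -2.49, 0.59 and -2.23 in knockout, with replicate 2 the highest of each genotype, and it was above background on 3 arrays. Knockout replicate 2 was the highest mouse for both Fcer1a and Cpa3, and Cpa3 and Cma1 were singled out after their values were seen.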
